A study of Homo sapiens with 4 samples.

Results

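Genes whose promoters are classically reported as hypermethylated in prostate cancer were examined by MeTA-array in TR9_MeTA14 and TR15_MeTA5 cells. The members were chosen by name from general knowledge of prostate cancer methylation, with earlier results of these data known. They were GSTP1, RARB, RASSF1, APC, CCND2, PTGS2, EDNRB, TIMP3, CDH13 and CAV1. All 10 were on the array, with 13 of the 25422 probes that could be paired with 1 of 19480 genes. The questions were which of them are silent without tetracycline and which rise with it in each line.

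Both lines derive from LNCaP, an established human prostate cancer cell line, and both carry a Tet repressor and a stably integrated, tetracycline-inducible NFκB (AD)-MBD, a methyl-CpG-binding domain joined to the NFκB activation domain. TR9_MeTA14 descends from the repressor line TR9 and TR15_MeTA5 from TR15. Cells were either left without tetracycline (-Tet) or treated with it for 4 days (+Tet), and total RNA of each condition was labeled with Cy3 and hybridized to 1 Agilent 4 × 44K array, giving 4 arrays. The repressor lines without the construct were not on the arrays analysed here, so induction of the construct and exposure to tetracycline cannot be told apart.

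In many prostate tumors, cytosines in the CG-rich promoter of such genes carry methyl groups and the gene is not transcribed. A methyl-CpG-binding domain attaches to methylated CG dinucleotides, and in MeTA the activation domain it carries is meant to switch on the genes lying beside them. The members act in different processes: detoxification (GSTP1), retinoic acid signaling (RARB), Ras and Wnt signaling (RASSF1 and APC), the cell cycle (CCND2), prostaglandin and endothelin signaling (PTGS2 and EDNRB), the extracellular matrix and cell adhesion (TIMP3 and CDH13) and membrane caveolae (CAV1).

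RefSeq promoter windows on build GRCh38.p14 were matched by symbol for 8 of the 10 members, 15 windows in all, each running from 250 bases before to 50 bases after an annotated start. The windows shown are those of the genes named next. Whether a window is the promoter reported as methylated in prostate tumors was not determined, for RASSF1 as for the others. Which annotated start gives rise to the transcript that a probe measures is not known from the sources used here, so a window is that of a start of the gene and not of the measured transcript. GSTP1 was the member upregulated in both lines. RASSF1 and APC were expressed on every array, and TIMP3 and PTGS2 were silent on every array. CAV1 is shown by the window that held as many CG dinucleotides as that of GSTP1. Sequences read 5′ to 3′ on the strand of the gene, and capitals mark each CG, the dinucleotide that can be methylated and that reads the same on both strands.
GSTP1 chr11:67583562-67583861 (+ strand): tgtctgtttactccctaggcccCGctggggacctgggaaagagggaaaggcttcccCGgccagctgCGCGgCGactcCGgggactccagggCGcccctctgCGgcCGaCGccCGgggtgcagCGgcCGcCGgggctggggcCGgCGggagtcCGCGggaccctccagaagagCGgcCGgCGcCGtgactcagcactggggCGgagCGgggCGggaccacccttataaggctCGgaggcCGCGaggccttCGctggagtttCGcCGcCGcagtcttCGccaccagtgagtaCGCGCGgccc
RASSF1 chr3:50337401-50337700 (- strand): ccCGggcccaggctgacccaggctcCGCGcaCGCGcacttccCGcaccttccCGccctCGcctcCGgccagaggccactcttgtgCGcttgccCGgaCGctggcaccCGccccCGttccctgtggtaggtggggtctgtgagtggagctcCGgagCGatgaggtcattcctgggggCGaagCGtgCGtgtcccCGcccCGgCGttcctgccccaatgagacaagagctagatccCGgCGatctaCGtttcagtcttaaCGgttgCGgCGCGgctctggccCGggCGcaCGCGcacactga
APC chr5:112707248-112707547 (+ strand): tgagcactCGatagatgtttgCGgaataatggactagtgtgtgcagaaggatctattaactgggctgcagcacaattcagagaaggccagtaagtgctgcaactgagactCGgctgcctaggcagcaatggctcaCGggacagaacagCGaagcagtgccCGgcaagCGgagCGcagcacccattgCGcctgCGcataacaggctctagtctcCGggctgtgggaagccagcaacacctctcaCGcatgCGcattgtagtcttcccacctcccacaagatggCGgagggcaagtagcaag
APC chr5:112737635-112737934 (+ strand): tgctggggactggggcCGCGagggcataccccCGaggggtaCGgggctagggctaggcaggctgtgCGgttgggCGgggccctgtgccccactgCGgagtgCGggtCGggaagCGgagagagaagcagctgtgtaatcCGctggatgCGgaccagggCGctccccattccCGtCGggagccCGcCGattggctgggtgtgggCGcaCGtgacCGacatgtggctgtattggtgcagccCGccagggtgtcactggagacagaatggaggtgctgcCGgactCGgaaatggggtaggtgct
TIMP3 chr22:32801455-32801754 (+ strand): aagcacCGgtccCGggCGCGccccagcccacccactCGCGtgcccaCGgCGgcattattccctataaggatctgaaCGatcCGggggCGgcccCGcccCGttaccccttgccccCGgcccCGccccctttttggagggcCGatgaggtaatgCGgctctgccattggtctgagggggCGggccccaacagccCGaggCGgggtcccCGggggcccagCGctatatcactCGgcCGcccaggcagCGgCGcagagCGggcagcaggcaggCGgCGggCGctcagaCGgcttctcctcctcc
PTGS2 chr1:186680374-186680673 (- strand): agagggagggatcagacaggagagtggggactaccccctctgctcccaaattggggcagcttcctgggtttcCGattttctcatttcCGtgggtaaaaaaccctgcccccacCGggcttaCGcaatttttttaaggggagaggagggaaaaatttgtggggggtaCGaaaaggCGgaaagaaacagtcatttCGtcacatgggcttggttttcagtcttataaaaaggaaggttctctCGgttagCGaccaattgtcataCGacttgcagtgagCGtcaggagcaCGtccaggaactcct
CAV1 chr7:116526112-116526411 (+ strand): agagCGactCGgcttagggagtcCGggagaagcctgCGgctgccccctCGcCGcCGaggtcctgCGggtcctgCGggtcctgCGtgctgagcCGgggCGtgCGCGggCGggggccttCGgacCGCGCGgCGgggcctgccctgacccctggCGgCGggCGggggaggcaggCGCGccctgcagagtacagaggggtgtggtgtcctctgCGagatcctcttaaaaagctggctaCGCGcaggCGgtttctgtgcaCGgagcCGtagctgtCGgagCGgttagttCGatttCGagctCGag

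The GSTP1 window held 36 CG dinucleotides and 74.0% G and C, against a median of 14 CG over 35116 windows of the same length. Only 12.7% of all windows held at least as many. The RASSF1 window held 33 and the TIMP3 window 31, numbers reached by 17.2% and 20.7% of windows. The windows of APC held 14 and 23, and that of PTGS2 held 12. RARB had 4 windows, with 33, 1, 7 and 2 CG dinucleotides, EDNRB had 2, with 19 and 14, and CAV1 had 3, with 19, 18 and 36. A count of CG dinucleotides describes the sequence and not its methylation, which was not measured on these arrays.

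The values given are processed signals of Agilent Feature Extraction, the brightness of a probe after subtraction of background on an arbitrary linear scale. Whether a probe is well above background is told by a flag of that program, and a gene was called silent on an array when none of its probes had the flag. Sets of 4 signals are given in the order TR9_MeTA14 without and with tetracycline, then TR15_MeTA5 without and with it. In this order, the lowest signals carrying the flag were 15.5, 13.9, 15.4 and 19.2. Per array, 60.2% to 71.0% of 34127 non-control probes carried the flag, and no spot was saturated. Fold changes were taken after each array was scaled to its 75th percentile, which lay at signals of 617, 777, 367 and 542, so that +Tet over -Tet ratios of signals were divided by 1.26 in TR9_MeTA14 and 1.48 in TR15_MeTA5. With 1 array per condition there is no replicate within a line, and a fold change in 1 line has no test. As an identity check, all 6 luminal prostate markers examined, among them KLK3, FOLH1 and HOXB13, were detected on every array, with summed signals of 269665, 130015, 221298 and 206284, whereas 1 of 4 basal markers, KRT15, was.

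Without tetracycline, 7 of the 10 members were silent in TR9_MeTA14, where 28.8% of all genes were silent, and 7 were silent in TR15_MeTA5, where 31.6% were. Of these, 6 were silent in both lines, namely CCND2, PTGS2, EDNRB, TIMP3, CDH13 and CAV1. RARB was silent in TR9_MeTA14 alone and GSTP1 in TR15_MeTA5 alone. RASSF1 and APC were detected in both. By the more lenient flag of a signal positive and significant against background, 4 members were silent in TR9_MeTA14 and 3 in TR15_MeTA5. With tetracycline, 1 of the 7 silent members became detectable in TR9_MeTA14, CAV1, and 1 in TR15_MeTA5, GSTP1. Over all silent genes, 26.9% became detectable in TR9_MeTA14 and 17.6% in TR15_MeTA5. In the end 5 members, CCND2, PTGS2, EDNRB, TIMP3 and CDH13, were silent on all 4 arrays, as were 19.5% of all genes.

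**Figure D1:**
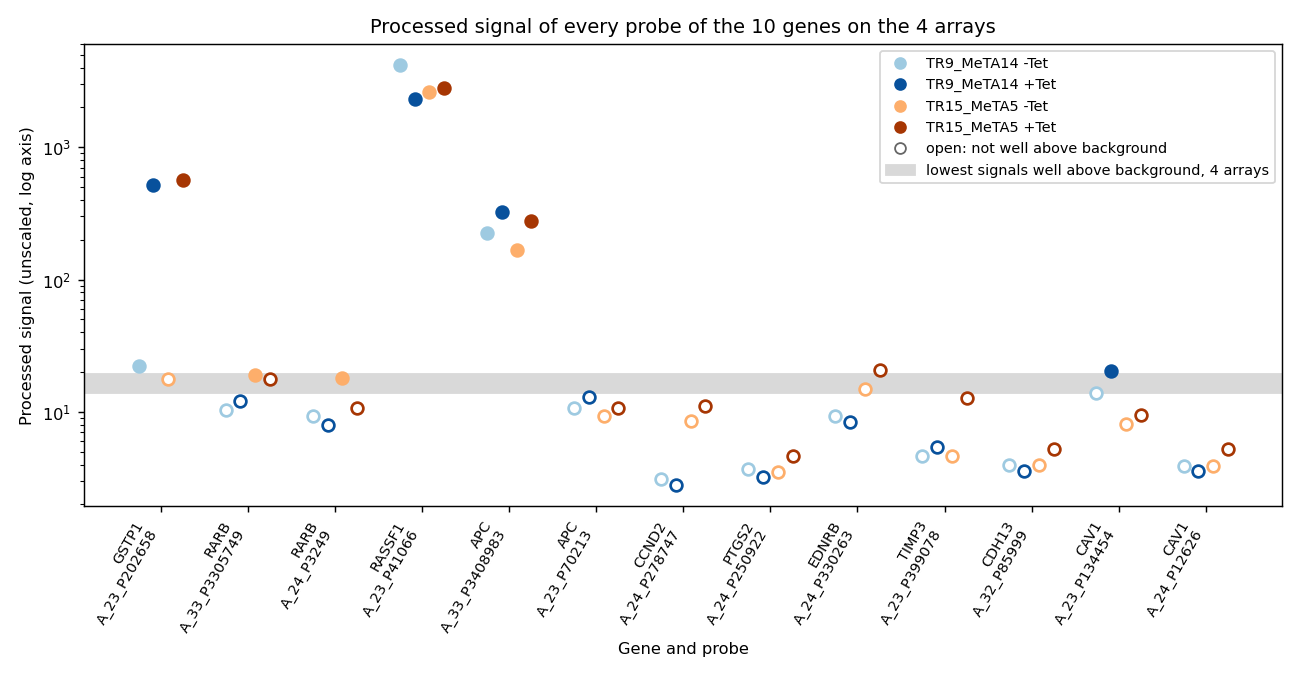
Processed signal (log axis, not scaled between arrays) of the 13 probes of the 10 genes on the 4 arrays; filled points are well above background, open points are not, and the grey band spans the lowest signals well above background on the 4 arrays. GSTP1 went from 22.3 to 517 and from 17.9 to 564, whereas the probes of CCND2, PTGS2, EDNRB, TIMP3 and CDH13 are drawn as open points on all arrays.

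A fold change could be given for 4 members in each line. The brighter array had to carry the flag, and where the dimmer one did not, the fold is a lower bound. GSTP1 was the 1 member at least 2-fold higher in TR9_MeTA14, where 16.8% of all genes compared were, and the 1 member in TR15_MeTA5, where 9.77% were. RASSF1 was the 1 member at least 2-fold lower in TR9_MeTA14, beside 15.1% of genes, and no member was in TR15_MeTA5, beside 2.21%. GSTP1 was thus the 1 member of 10 upregulated 2-fold in both lines. Of 13976 genes with a fold change in both, 8.21% were. For each line, a share of 1 in 4 members compared rests on 1 gene.

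GSTP1 encodes the pi-class glutathione S-transferase, which conjugates glutathione to reactive electrophiles, and its promoter methylation is among the best-known DNA alterations of prostate cancer. Its probe A_23_P202658, for transcript NM_000852, is printed in 10 spots on each array and had signals of 22.3, 517, 17.9 and 564. Both -Tet arrays were thus at the edge of detection and both +Tet arrays were far above it. On TR9_MeTA14 -Tet, 5 of the 7 spots kept were well above background, and on TR15_MeTA5 -Tet 4 of 9 were, so that the gene was called detected in the one line and silent in the other at nearly the same signal. The spots kept ranged from 19.1 to 28.9 and from 13.7 to 21.2 without tetracycline, and from 473 to 544 and from 515 to 596 with it. Of the spots left out as outliers, the brightest read 67.3, on TR9_MeTA14 -Tet. The ranges without and with tetracycline did not overlap in either line, but spots of an array are not separate cultures.

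**Figure D2:**
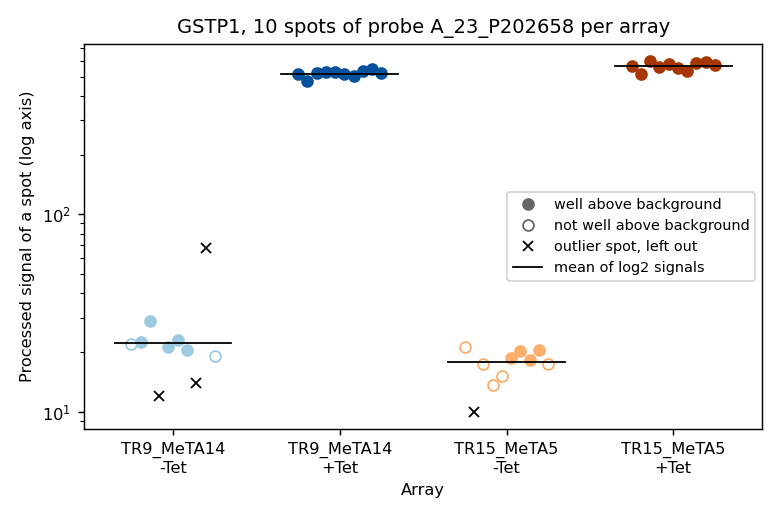
Processed signal (log axis) of the 10 spots of the GSTP1 probe on each array, with the mean of log2 signals as a line and outlier spots, which were left out, as crosses. The spots used lay at or under 28.9 on both -Tet arrays and at or above 473 on both +Tet arrays.

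After scaling, GSTP1 was 18.4-fold higher with tetracycline in TR9_MeTA14, a log2 change of 4.20 with a standard error of 0.073 over spots, and at least 21.3-fold higher in TR15_MeTA5, a log2 change of at least 4.41 with a standard error of 0.072. Those errors cover the spots of an array only, not separate cultures. A larger increase was seen for 321 of 15076 genes in TR9_MeTA14 and for 122 of 14339 in TR15_MeTA5. Fitted over both lines with limma, with cell line as a block and 1 residual degree of freedom, GSTP1 rose by a log2 of 4.31 (SE 0.29, limma with Benjamini-Hochberg, adjusted p = 0.0153). Of the -Tet arrays, only that of TR9_MeTA14 carried the flag for GSTP1. Since the fit required the flag on 2 or more arrays, GSTP1 entered it only with the help of the +Tet arrays, where it was high. The fit took the TR15_MeTA5 -Tet signal as it was, although it lacked the flag. In that fit 593 of 22808 probes, 2.6%, were higher and 3 were lower. With normexp background correction and quantile normalization together, the log2 increase of GSTP1 was 2.27 in TR9_MeTA14 and at least 2.81 in TR15_MeTA5.

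Markers of other cell types were read on the same arrays. Summed signals of 3 leukocyte markers (PTPRC, CD3E and CD14) were 191 without and 1025 with tetracycline in TR9_MeTA14, and 203 and 502 in TR15_MeTA5. All 3 were detected on each array except TR15_MeTA5 +Tet, where CD3E was not. CD14 made up most of the difference, with signals of 69.4, 840, 52.9 and 373, whereas PTPRC had 97.2, 145, 109 and 105 and CD3E had 24.0, 40.1, 41.2 and 23.9. Of 5 stromal markers 2 were detected without tetracycline and 3 with it in each line, and of 4 endothelial markers likewise 2 and 3. Both lines are stable transfectants of LNCaP, and the paper describes no leukocytes, stromal or endothelial cells in the cultures. The marker signals are thus read as expression in LNCaP-derived cells and not as numbers of other cells. Whether the changes of these markers are linked to the increase of GSTP1 was not tested. In total RNA of a culture, a rise in all cells and a rise in some of them cannot be told apart.

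RASSF1 and APC, the members detected on every array, did not rise 2-fold. RASSF1 encodes a Ras-association-domain adaptor that acts on the Hippo kinases, and its probe A_23_P41066 belongs to NM_170713, and the array does not tell the gene's isoforms apart. Signals were 4184, 2329, 2607 and 2804. Unscaled, TR9_MeTA14 -Tet was the highest. On the scaled log2 values, 2.76, 1.58, 2.83 and 2.37, both -Tet arrays were close and TR9_MeTA14 +Tet was the lowest. RASSF1 was 2.26-fold lower with tetracycline in TR9_MeTA14 (log2 change -1.18) and 1.38-fold lower in TR15_MeTA5 (-0.46), where the unscaled signal was slightly higher with tetracycline. Scaled on the spike-in probes instead, the changes were -1.04 and -0.03. Over both lines RASSF1 did not pass the test (log2 change -0.82, SE 0.30, limma with Benjamini-Hochberg, adjusted p = 0.257).

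APC encodes the scaffold of the complex that marks β-catenin for degradation. Its probe A_33_P3408983, for NM_001127511, had signals of 226, 324, 167 and 277, higher with tetracycline in each line before scaling. After scaling the folds were 1.14 in TR9_MeTA14 and 1.12 in TR15_MeTA5, and over both lines the log2 change was 0.18 (SE 0.26, limma with Benjamini-Hochberg, adjusted p = 0.721). The other APC probe, A_23_P70213 for NM_000038, was printed in 10 spots and was not well above background on any array, with signals of 10.6, 13.0, 9.34 and 10.6. The probes of APC thus disagreed on whether the gene was detected, in both lines and under both conditions.

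RARB and CAV1 hovered around the limit of detection. RARB encodes the retinoic acid receptor beta, a nuclear receptor that is itself induced by retinoic acid, and both of its probes are for NM_000965. A_33_P3305749 had signals of 10.4, 12.0, 18.9 and 17.7, and A_24_P3249 had 9.24, 7.95, 18.0 and 10.7. Both were well above background on TR15_MeTA5 -Tet and on no other array. The scaled signal of the brighter probe was at least 1.45-fold lower with tetracycline in TR15_MeTA5, a log2 change of -0.54 that was -0.11 with spike-in scaling. In TR9_MeTA14 no fold can be given, since neither probe was well above background on either array.

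CAV1 encodes caveolin-1, the coat protein of caveolae. Its 10-spot probe A_23_P134454, for NM_001753, had signals of 13.9, 20.4, 8.04 and 9.45 and was well above background on TR9_MeTA14 +Tet alone, by 7 of 9 spots. The spots kept on that array ranged from 16.5 to 34.9 and those on TR9_MeTA14 -Tet from 7.95 to 18.8, so the ranges overlapped. The fold was at least 1.05 in TR9_MeTA14, and in TR15_MeTA5 none can be given. The other probe, A_24_P12626, was not well above background on any array, with signals of 3.94, 3.59, 3.89 and 5.23.

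No probe of the remaining 5 members was well above background on any array, and no fold is given for them. CCND2, a cyclin that drives the G1 phase together with its kinases, had signals of 3.11, 2.79, 8.61 and 11.0. PTGS2, the inducible cyclooxygenase of prostaglandin synthesis, was printed in 10 spots and had signals of 3.71, 3.21, 3.52 and 4.61. None of the PTGS2 spots kept was well above background. On TR15_MeTA5 +Tet, 3 of its spots were left out as outliers, among them a spot at 83.3 that had the flag. EDNRB, an endothelin receptor, had signals of 9.39, 8.34, 14.9 and 20.6. The last of these is above the lowest flagged signal of its array, 19.2, without having the flag itself. TIMP3, an inhibitor of matrix metalloproteinases, had signals of 4.62, 5.47, 4.66 and 12.8. CDH13, the cadherin anchored to the membrane by a lipid, had signals of 3.96, 3.60, 3.95 and 5.28. At this sensitivity a rise among signals without the flag could not be measured.

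The -Tet arrays were also set side by side between the lines, after scaling and with no test. RASSF1 differed by a log2 of 0.07 and APC by 0.31, both higher in TR15_MeTA5. These are the members well above background on both -Tet arrays. For GSTP1 the log2 difference was 0.43 in the same direction, with TR15_MeTA5 -Tet not well above background.

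Relatives and functional partners of the members, 44 genes that were all on the array, were listed to set the members in their pathways. A gene silent without tetracycline can enter a count of fold changes only as an increase, so these counts are descriptions. Of 37 relatives compared in TR9_MeTA14, 12 (32.4%) were at least 2-fold higher and 6 lower, beside 16.8% and 15.1% of all genes. Of 34 compared in TR15_MeTA5, 7 (20.6%) were higher and 0 lower, beside 9.77% and 2.21%. The median log2 change was 0.08 in TR9_MeTA14 and -0.02 in TR15_MeTA5, against -0.06 and -0.16 over all genes compared. The same 7 genes, CRABP2, RASSF2, RASSF5, APC2, PTGES, TIMP1 and CDH3, were higher in both lines. By limma over both lines with Benjamini-Hochberg adjustment, 5 of 35 relatives tested rose and 0 fell, beside 2.6% of all probes that were higher. The 5 were these genes without RASSF5 and PTGES. Of them, TIMP1 and CDH3 were silent on both -Tet arrays. They entered the test only through the +Tet arrays, so they could enter only as increases.

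**Figure D3:**
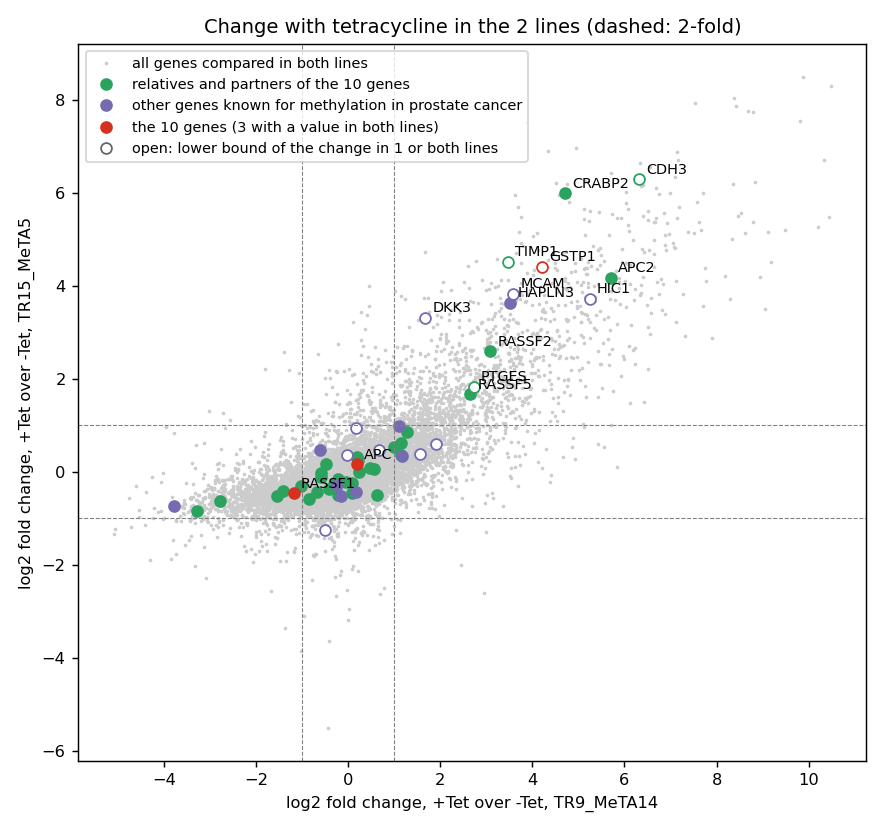
Log2 fold change with tetracycline in TR15_MeTA5 against that in TR9_MeTA14 for 13976 genes with a value in both lines (grey), with the 3 members that have both, 44 relatives and 26 other methylated genes in color where compared in both; open points are lower bounds and dashed lines mark 2-fold. GSTP1 lies at 4.20 and at least 4.41, whereas RASSF1 and APC lie between -1.18 and 0.19 on both axes.

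Beside RARB, CRABP2 of its ligand pathway rose, whereas RARA and RARG did not pass the test. CRABP2, which delivers retinoic acid to the receptors, had signals of 98.3, 3230, 47.7 and 4506 and was 26.1-fold and 63.8-fold higher. Its second probe, for another transcript (NM_001199723), did not share this, with log2 changes of -0.24 and 0.05. RARA had log2 changes of 1.28 and 0.86 (limma with Benjamini-Hochberg, adjusted p = 0.171), with -0.13 and -0.74 on its second probe. RARG had log2 changes of 0.20 and 0.25.

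Beside RASSF1 and APC, the family members RASSF2 and APC2 rose, and other relatives had lower values with tetracycline. RASSF2, a relative of RASSF1, was 8.50-fold and 6.07-fold higher, from signals of 461 and 269 without tetracycline. RASSF5 was 6.28-fold and 3.18-fold higher, which over both lines missed the threshold (limma with Benjamini-Hochberg, adjusted p = 0.0696). APC2, a homolog of APC expressed mainly in the nervous system, had signals of 303, 19894, 260 and 6951, and was 52.1-fold and 18.1-fold higher. RASSF3, named after its values were seen, had signals of 657, 85.2, 434 and 359 and was 9.70-fold lower in TR9_MeTA14 and 1.79-fold lower in TR15_MeTA5, which did not pass the test over both lines (limma with Benjamini-Hochberg, adjusted p = 0.229). Its second probe had log2 changes of -3.12 and -0.99. RASSF6 had log2 changes of -0.22 and -0.50.

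The glutathione transferases listed beside GSTP1 were likewise looked at after their values were seen. MGST1, the microsomal enzyme, had signals of 12491, 2276, 6739 and 6436 and was 6.91-fold lower in TR9_MeTA14 and 1.55-fold lower in TR15_MeTA5. GSTM3 was 2.67-fold and 1.32-fold lower and GSTO1 2.02-fold and 1.23-fold lower. None of these 3 passed the test over both lines, with adjusted p values by limma and Benjamini-Hochberg of 0.242, 0.267 and 0.305. GSTM2 was silent on both -Tet arrays and was at least 2.23-fold higher in TR9_MeTA14 and at least 1.29-fold higher in TR15_MeTA5 (adjusted p = 0.0686 by the same limma fit). The other listed transferases changed by less than 2-fold in each line. GSTA4 had log2 changes of -0.85 and -0.57, and GSTT1 of 0.08 and -0.23.

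Beside the members silent on all arrays, TIMP1 and CDH3 rose and the other D cyclins were expressed throughout. CCND1, the D cyclin most used by epithelial cells, had signals of 1036, 449, 641 and 663 and log2 changes of -1.54 and -0.51, and CCND3 had log2 changes of 0.23 and -0.01. Neither passed the test (limma with Benjamini-Hochberg, adjusted p = 0.244 and 0.829). TIMP1 had signals of 3.66, 215, 7.53 and 525, silent on both -Tet arrays, and was at least 11.0-fold and 23.0-fold higher, whereas TIMP2 had log2 changes of -0.48 and 0.16.

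CDH3, the P-cadherin of basal epithelium, had signals of 18.9, 1892, 12.3 and 1784, silent on both -Tet arrays, and was at least 79.5-fold and 78.2-fold higher. CDH1, the E-cadherin of epithelial cells, was expressed on all arrays and had log2 changes of 0.08 and -0.45. PTGES, which makes prostaglandin E from the product of the cyclooxygenases, had signals of 3.91, 129, 7.59 and 81.1 and was at least 6.63-fold and 3.56-fold higher (limma with Benjamini-Hochberg, adjusted p = 0.0649). PTGS1, EDNRA and CAV2 were not well above background on any array.

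CAVIN1, a partner of CAV1 in building caveolae, was looked at after its values were seen, because its probes, both for NM_012232, disagreed. A_23_P394064 had signals of 412, 43373, 44.2 and 25623, an increase of 83.7-fold and 392-fold. The brighter A_33_P3280066 had 66680, 96190, 30678 and 57033, folds of 1.15 and 1.26.

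As a wider comparison, 27 other genes known for methylation in prostate cancer were examined, of which 26 were on the array. Without tetracycline, 13 of them (50%) were silent in TR9_MeTA14 and 17 (65.4%) in TR15_MeTA5, beside 28.8% and 31.6% of all genes. With tetracycline 7 of those 13 and 9 of those 17 became detectable, beside 26.9% and 17.6% of all silent genes. At least 2-fold increases were found for 9 of 19 genes compared in TR9_MeTA14 and 4 of 18 in TR15_MeTA5, beside 16.8% and 9.77% of all genes, with 1 lower in each. The median log2 changes were 0.67 and 0.43, against the -0.06 and -0.16 of all genes, but in both lines the median fell on lower bounds of genes that were silent without tetracycline and could enter only as increases. By limma over both lines with Benjamini-Hochberg adjustment, 4 of 18 tested rose and 0 fell, beside 2.6% of all probes.

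The 4 of these genes that were higher in both lines were DKK3, HAPLN3, HIC1 and MCAM, and all 4 passed that test. DKK3 was silent on both -Tet arrays and entered the test only through the +Tet arrays, so it could enter only as an increase. HIC1 and MCAM had the flag on TR9_MeTA14 -Tet but not on TR15_MeTA5 -Tet, so they too entered only with the help of the +Tet arrays. HAPLN3 alone had the flag on all 4 arrays. HIC1, a transcriptional repressor named for its hypermethylation in cancer, had signals of 24.2, 1151, 11.8 and 301 and was 37.8-fold and at least 13.2-fold higher. MCAM, an adhesion molecule, had signals of 21.9, 330, 4.26 and 325 and was 12.0-fold and at least 14.2-fold higher. HAPLN3, a linker of hyaluronan and proteoglycans, was 11.4-fold and 12.5-fold higher from signals of 92.0 and 78.2. DKK3, a secreted relative of the Wnt inhibitors, was at least 3.20-fold and 9.99-fold higher. The -Tet signals of HIC1 and MCAM, like that of GSTP1, were close to the limit of detection in TR9_MeTA14. In TR15_MeTA5 -Tet those of HIC1 and MCAM were under the lowest flagged signal of the array, 15.4. That of GSTP1, 17.9, lacked the flag but was above this signal.

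Finally, silence was set beside the CG content of the promoter windows, over the 15173 genes on the array, 77.9%, for which a window was matched. In TR9_MeTA14 the silent share was 66.7% among genes with 0 to 4 CG dinucleotides and 14.8% among those with 30 or more, and in TR15_MeTA5 it was 69.0% and 17.2%. Among silent genes, the share that became detectable with tetracycline went the other way, 17.2% and 34.4% in TR9_MeTA14 for the same bins, and 7.43% and 28.0% in TR15_MeTA5. GSTP1 and TIMP3, both with over 30 CG dinucleotides, were both silent without tetracycline in TR15_MeTA5, where GSTP1 became detectable and TIMP3 did not. CAV1, whose windows held 19, 18 and 36 CG dinucleotides, did not become detectable there either. In TR9_MeTA14, where it was also silent without tetracycline, CAV1 did become detectable.

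**Figure D4:**
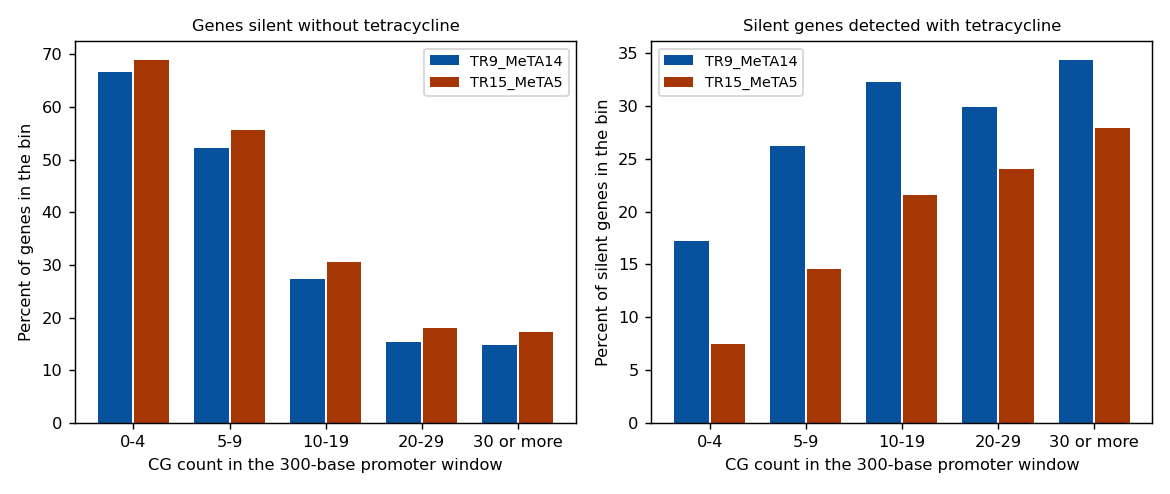
Percent of genes silent without tetracycline (left) and percent of those silent genes that were detected with it (right), by CG count in the 300-base promoter window, for each line. The silent share falls from 66.7% to 14.8% in TR9_MeTA14 and the share detected with tetracycline rises from 7.43% to 28.0% in TR15_MeTA5 between the lowest and the highest bin.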

How the data were processed

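Expression in both lines, untreated or under tetracycline, was measured on 4 arrays of 1 slide. The authors deposited, per array, the spot intensity values of Agilent Feature Extraction (version 10.7.3.1 in the file headers, 9.5.1 in the labels), background-subtracted and not normalized between arrays. The deposited flags (columns of 0 or 1) state whether a spot is an outlier or well above background. A series-wide deposited table repeats these signals on all 44495 rows per array.

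Members and lists were chosen with earlier results of these data known, and some listed genes are not reported here and entered no list count. Probes were named through RefSeq accessions (74.5% matched). Between 301 and 395 outlier spots per array were left out, log2 signals of a probe's spots were averaged, and the 75th percentile over non-control probes was subtracted. A probe was well above background where most of its spots were. The probe with the highest mean stood for a gene. A dim array's own signal, or its lowest flagged signal where higher, gave the bound. Genes named are the members, listed genes 2-fold higher or lower in both lines, and direct relatives of a member. All 4 arrays were fitted with limma 3.58.1 in R 4.3.3 (cell line as block, intensity trend, probes flagged on 2 or more arrays, Benjamini-Hochberg), after tests on simulated data. The number of arrays limits the precision. The 1 residual degree of freedom is the difference between the lines in the effect of tetracycline, moderated over probes. P-values thus do not measure the spread between replicate cultures, and a probe whose effect differs in size between the lines can miss the threshold. A probe that misses it is not shown to be unchanged, and 4 arrays allow no test between the effects in the 2 lines. Other steps ran in Python 3.11.15 (numpy 2.4.6, pandas 2.3.3). MBD2 and RELA, which share sequence with the construct or its source family, had probes that disagreed (log2 changes of -1.28 and -0.49 against at least 3.07 and 2.55 for MBD2, and of 0.29 and -0.16 against 2.49 and 1.59 for RELA).

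Alternatives were quantile normalization, scaling on the median or on 8 spike-in probes, a percentile taken over spots, normexp (offset 50, on median pixel intensities) with quantile normalization, the series table, all spots kept, other filters, plain ratios, the mean over probes, and cut-offs of 3-fold and 1.5-fold. The counts of relatives and other methylated genes under these settings were added after seeing the data.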

Additional observations from a re-analysis of the deposited data

How the results depend on the processing

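The fit over both lines paired the arrays by cell line, which was its block. Without the block the adjusted p of GSTP1 by limma was 0.0133 in place of 0.0153. With 1 array per condition, none could be left out. Of 82 values of single members under alternatives, 63 moved by less than the spread between spots, 19 moved by more and 0 changed direction. Many of the 63 could not have moved, because the setting leaves that value as it is. Examples are the mean over probes for a member with 1 probe, and plain ratios where no bound was used. A lower bound that fell under 1-fold was given no value, so it could not count as a change of direction. CAV1 in TR9_MeTA14 had no value with quantile normalization, with or without normexp. The tally is therefore no measure of stability. With probes required well above background on all 4 arrays, 0 members were higher in TR9_MeTA14, 0 in TR15_MeTA5 and 0 by limma in place of 1 each, since that filter leaves out GSTP1, and the relatives higher in both lines were 4 instead of 7 and the other methylated genes 1 instead of 4. Plain ratios in place of bounds gave 8 such other methylated genes. With the more lenient flag for signals positive and significant against background, 4 members were silent in TR9_MeTA14 and 3 in TR15_MeTA5 in place of 7 and 7. Over the 12 limma settings that kept it, the adjusted p of GSTP1 ranged from 0.00201 to 0.0270. Scaling on spike-in probes moved the median log2 change of all probes from -0.15 to -0.01 (TR9_MeTA14) and from -0.19 to 0.25 (TR15_MeTA5). The change of RASSF1 under that scaling was -1.04 and -0.03. The series table held the same values and is no test of stability. Changes among signals not well above background, as for 5 members, were beyond the sensitivity of the arrays.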
